A study of Mus musculus with 6 samples.

Results

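The 10 genes described here encode transcription factors, and 1 coactivator, that set up and maintain the B lineage: Ebf1, Pax5, Tcf3, Foxo1, Lef1, Pou2af1, Spib, Sfpi1, Irf4 and Irf8. They were chosen by gene symbol from the 22099 genes of the table, by a rule that uses no measured level, though with earlier results of these data known, and all 10 were present and high enough to be tested. Polyadenylated RNA was sequenced from 6 cultures of mouse (C57BL/6) bone marrow after 14 days in vitro, 2 biological replicates in each of 3 groups. Cultures were homozygous for loss of zinc finger 1 of Ikaros (genotype Ikaros_ZnF1-/-, the ZnF1 mutant), homozygous for loss of its zinc finger 4 (Ikaros_ZnF4-/-, the ZnF4 mutant), or wt. All 3 groups, wt included, carried the same oncogene: whole marrow was transduced at day 0 with a retrovirus that expresses BCR-ABL p185, an oncogenic fusion kinase, together with a yellow fluorescent protein. The labels call the cells transformed pro-B acute lymphoblastic leukaemia. No sort of the transduced cells is mentioned, nor whether a culture held 1 clone or many.

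Commitment of a lymphoid progenitor to the B lineage depends on a network of factors that sustain each other. E2A (the product of Tcf3) and Foxo1 act with Ebf1 to open the B cell programme, and Ebf1 induces Pax5, which activates B cell genes and represses genes of other lineages. PU.1 (Sfpi1) and Spi-B (Spib) are closely related ETS factors that bind the same core sequence, often beside Irf4 or Irf8, and Pou2af1 is a coactivator that binds DNA through the octamer factors Oct-1 and Oct-2. Ikaros, encoded by Ikzf1, binds DNA through zinc fingers and works in the same cells as an activator and a repressor of lymphoid genes.

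Promoters are shown for the 2 members that were lower in the ZnF4 mutant than in both other groups (Spib and Pou2af1) and, for contrast, for Pax5, whose groups overlapped in every comparison. Each window runs from 250 bases before the RefSeq transcription start to 50 bases after it, in mouse build GRCm38.p6, 5′ to 3′ on the strand of the gene. Capitals mark GGGAA, the core of Ikaros sites, and CCCNNGGG, the core of Ebf1 sites, on either strand.
Spib, chr7:44532022-44532321, minus strand: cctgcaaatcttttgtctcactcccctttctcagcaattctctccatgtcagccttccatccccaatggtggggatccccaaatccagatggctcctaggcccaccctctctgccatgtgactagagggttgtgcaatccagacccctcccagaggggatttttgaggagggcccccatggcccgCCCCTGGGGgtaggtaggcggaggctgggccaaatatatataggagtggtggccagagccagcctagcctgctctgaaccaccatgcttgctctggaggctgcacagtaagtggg
Pou2af1, chr9:51213440-51213739, plus strand: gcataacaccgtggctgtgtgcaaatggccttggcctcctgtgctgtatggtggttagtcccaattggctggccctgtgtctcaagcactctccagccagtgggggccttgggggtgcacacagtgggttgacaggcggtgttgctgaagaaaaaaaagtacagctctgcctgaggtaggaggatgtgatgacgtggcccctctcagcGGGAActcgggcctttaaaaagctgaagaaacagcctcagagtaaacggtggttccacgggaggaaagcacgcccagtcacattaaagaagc
Pax5, chr4:44710645-44710944, minus strand: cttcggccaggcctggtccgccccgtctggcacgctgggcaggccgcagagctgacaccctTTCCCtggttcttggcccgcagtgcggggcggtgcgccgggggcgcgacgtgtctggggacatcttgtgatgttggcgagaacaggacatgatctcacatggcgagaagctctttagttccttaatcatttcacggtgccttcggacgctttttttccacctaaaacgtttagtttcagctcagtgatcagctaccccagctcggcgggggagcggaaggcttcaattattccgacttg

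The Spib window held no GGGAA and 2 overlapping matches to CCCNNGGG on the same bases, a motif found in 13.7% of the 32851 promoter windows of this length. Pou2af1 and Pax5 held 1 GGGAA each, and GGGAA is common, being found in 62.7% of windows. Of the 9 members with a window (Sfpi1 is named only), the first listed window held GGGAA in Pax5, Ebf1, Foxo1, Lef1, Pou2af1 and Irf8, and not in Tcf3, Spib or Irf4. CCCNNGGG was not particular to Spib, and the first listed windows of Foxo1 and Irf8 held it too. The E-box CANNTG, the letters that E proteins such as E2A bind, was present in the windows of Spib, Pou2af1 and Pax5 and in 72.3% of all windows. GAGGAA, the core of PU.1 and Spi-B sites, was present in the Pou2af1 and Irf4 windows and in 28.3% of all windows. None of these 9 first windows held the octamer ATGCAAAT, which 1.74% of all windows held, or the forkhead letters TGTTTAC, which 3.65% held. All motifs were searched on both strands, matches in the 3 windows printed did not overlap other than the 2 in Spib, and a match describes letters and not a bound site.

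The values are RPKM as deposited, which scales reads to transcript length and to the reads of each library, so levels can be set side by side between genes. Values were rounded to 1 decimal, so that depth cannot be read from them, and summed RPKM was 287007.3 to 345765.9 per library. The B lineage label was checked on markers that included Cd79a, Cd79b, Vpreb1, Igll1, Blnk and Cd24a, and all of these were present. Cd79b, for example, had 646.4 and 662.5 RPKM in the ZnF1 mutant, 487.1 and 382.5 RPKM in the ZnF4 mutant, against 428 and 408 RPKM in wt. Transcripts of other marrow cells were present too. The sum over 9 macrophage markers was 923.3 to 995.6 RPKM in the ZnF1 mutant, 326.5 to 360.1 RPKM in the ZnF4 mutant and 312.7 to 370.6 RPKM in wt. The sum over 8 stromal and endothelial markers was 143.8 to 245.1 RPKM in the ZnF1 mutant, 73.2 to 74 RPKM in the ZnF4 mutant and 68.7 to 77.9 RPKM in wt. Granulocyte markers summed to 1530 RPKM in ZnF1 mutant replicate 2 and 502.8 RPKM in wt replicate 1, against 0.5 to 51.4 RPKM in the other libraries.

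All 10 factors were well expressed in every library, and 0 of them passed the limma test below without a term for the replicate number. The differences lay in Spib, Sfpi1 and Pou2af1. Spib, a B cell ETS factor, was highest in the ZnF1 mutant and lowest in the ZnF4 mutant, with a 6.48-fold range over the 6 libraries. Sfpi1, the gene of PU.1, was highest in the ZnF1 mutant, and Pou2af1 was lowest in the ZnF4 mutant. Ebf1, Foxo1 and Irf4 varied by no more than 1.29-fold over all 6 libraries.

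The test was limma on log2(RPKM + 1) over the 11345 genes that reached 1 RPKM in 2 or more libraries, with a Benjamini-Hochberg adjusted p of 0.05 as the threshold. Fold changes below are on that log2 scale, where low genes appear to change less than they do, and errors in brackets after them are standard errors. Without a term for the replicate number, 0 of the 10 members passed in any comparison. In that fit 0% of all genes tested passed between the ZnF1 mutant and wt. Between the ZnF4 mutant and wt 2.72% passed, 1.43% higher and 1.3% lower, and between the ZnF4 and the ZnF1 mutant 5.37% passed, 1.61% higher and 3.75% lower. At an unadjusted limma p under 0.05 the counts of members were 0, 1 (Pou2af1) and 1 (Spib) of 10 in these comparisons, where 11.3%, 11.7% and 19.3% of all genes tested lay under it, so the members did not exceed the background.

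Replicates 1 and 2 differed in the same direction in all 3 groups for many genes. Of the members 8 of 10 were higher in replicate 1 in every group, as were 44.3% of all genes tested. The exceptions were Pax5 and Irf4. Summed RPKM was also higher in replicate 1 of each group. The median gene was higher there by 0.12, 0.06 and 0.1 on the log2 scale (ZnF1 mutant, ZnF4 mutant, wt), so part of the step was not particular to the members. A second limma fit therefore compared groups within replicate number, as a block. In this replicate block fit 1 member was higher in the ZnF1 mutant than in wt (Sfpi1) and 0 were lower, where 10.4% of all genes were higher and 2.88% lower. In the ZnF4 mutant 2 members were lower than in wt (Spib and Pou2af1) and 0 higher, where 7.92% of all genes were lower and 8.02% higher. Between the mutants 3 members were lower in the ZnF4 than in the ZnF1 mutant (Spib, Pou2af1 and Sfpi1) and 0 higher, where 19.2% of all genes were lower and 15.9% higher. The median log2 fold change of the 10 members was 0.12, -0.07 and -0.13 in these comparisons, against -0.01, 0.04 and 0.04 over all genes tested. The labels do not say what the replicate number marks. Counted by libraries alone, the groups did not overlap for 3 members in the ZnF1 mutant against wt (Foxo1, Spib and Sfpi1, all higher), for 3 in the ZnF4 mutant against wt (Foxo1 higher, Pou2af1 and Spib lower) and for 2 in the ZnF4 against the ZnF1 mutant (Pou2af1 and Spib, both lower). Of all genes tested 31.1% did not overlap in the ZnF1 mutant against wt (18.3% higher, 12.7% lower), 31.7% in the ZnF4 mutant against wt (17.8% higher, 13.8% lower) and 43.5% between the mutants (21.7% higher, 21.8% lower). The wt libraries serve both comparisons with wt, and the block calls rest on 2 values a group.

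**Figure D1:**
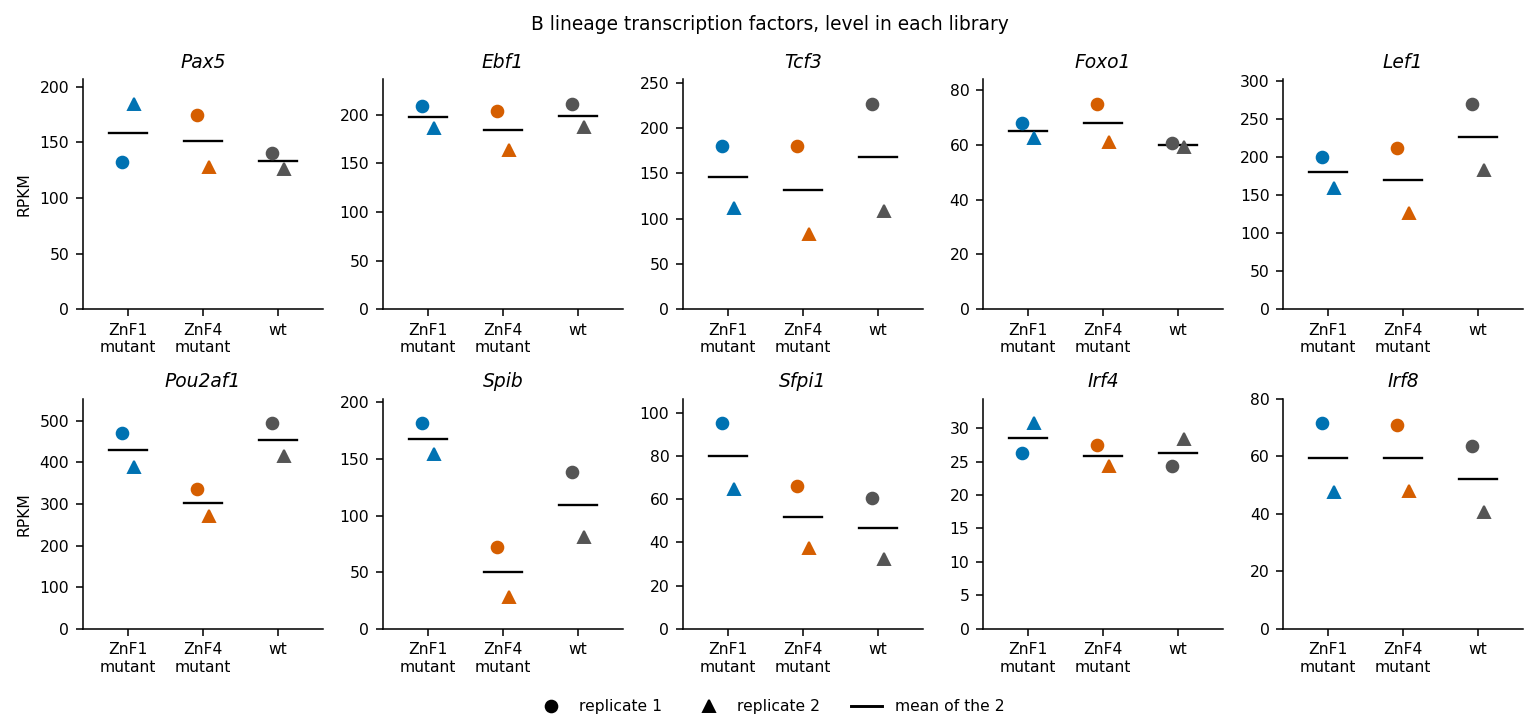
RPKM (y axis, linear, from 0, scaled for each gene) of the 10 factors in the ZnF1 mutant, ZnF4 mutant and wt groups (x axis); circles are replicate 1, triangles replicate 2 and bars the mean of the 2. Spib separates the 3 groups, from 154.4 RPKM and above in the ZnF1 mutant to 71.8 RPKM and below in the ZnF4 mutant, while Ebf1, Foxo1 and Irf4 stay close to level.

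Levels were ordered alike across libraries at the top and the bottom. Pou2af1 was the highest member in every library, with a mean of 395.1 RPKM over the 6, and Irf4 was the lowest in every library, with a mean of 26.9 RPKM. Ebf1 (mean 193.6 RPKM) and Lef1 (191.7 RPKM) came next and overlapped over the libraries, as did Tcf3 (148.3 RPKM) and Pax5 (147.6 RPKM). Spib averaged 109.1 RPKM, and its libraries overlapped those of both its neighbours. Foxo1 (64.28 RPKM), Sfpi1 (59.38 RPKM) and Irf8 (57.03 RPKM) could not be told apart by level. The Pax5 row is a transcript of only 1218 bases, and its RPKM depends on that length.

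Ebf1, the pioneer factor of the B lineage, had 209.4 and 186.1 RPKM in the ZnF1 mutant, 204.3 and 163.4 RPKM in the ZnF4 mutant, and 211.1 and 187.2 RPKM in wt. The groups overlapped, and each replicate 1 value was above its replicate 2 value. Its log2 fold change against wt was -0.01 (0.19) for the ZnF1 mutant and -0.12 (0.19) for the ZnF4 mutant, limma adjusted p = 1 in both. The 95% intervals were -0.49 to 0.47 and -0.6 to 0.36, or -0.22 to 0.2 and -0.33 to 0.08 with the replicate block. Its relatives Ebf2, Ebf3 and Ebf4 were near absent, the highest value being 0.3 RPKM of Ebf3, and none was tested.

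Pax5, which holds cells in the B lineage, had 132.3 and 184.5 RPKM in the ZnF1 mutant, 174.1 and 128.1 RPKM in the ZnF4 mutant, and 140.8 and 126 RPKM in wt. The highest value was ZnF1 mutant replicate 2 and the lowest wt replicate 2, and the 3 groups overlapped. The means were 158.4 ± 36.9 RPKM in the ZnF1 mutant, 151.1 ± 32.5 RPKM in the ZnF4 mutant and 133.4 ± 10.5 RPKM in wt (SD, n = 2 each). Pax5 differed by 0.23 (0.25) in the ZnF1 mutant against wt and 0.16 (0.25) in the ZnF4 mutant against wt, limma adjusted p = 1 in both, and 0.54 and 0.67 with the replicate block. Mutant over wt within replicate 1 was 0.94 for the ZnF1 mutant and 1.24 for the ZnF4 mutant. Within replicate 2 it was 1.46 and 1.02 in the same order, so the replicates did not give 1 direction for the ZnF1 mutant.

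Of 6 genes that Pax5 is known to repress 3 were tested, and Flt3, Ccr2 and Cd28 stayed too low, with 1.9 RPKM of Ccr2 as their highest value. Emb, which encodes the adhesion protein embigin, rose in the ZnF4 mutant to 42.1 and 44.2 RPKM, against 9.8 RPKM in both wt libraries, by 2.03 on the log2 scale (SE 0.14, limma adjusted p = 0.0067). In the ZnF1 mutant Emb had 27.6 and 29.3 RPKM, 1.45 above wt on the log2 scale (limma adjusted p = 0.092, or 0.0041 with the replicate block). Csf1r, the receptor of the macrophage growth factor, had 17.5 and 14.2 RPKM in the ZnF4 mutant, 36.9 and 32.9 RPKM in the ZnF1 mutant, against 13.5 and 12.6 RPKM in wt. It was lower in the ZnF4 than in the ZnF1 mutant by -1.1 on the log2 scale (limma adjusted p = 0.032). Csf1r is also 1 of the 9 macrophage markers, whose sum was higher in the ZnF1 mutant. The part of those cells in the Csf1r level was not tested. Notch1 had 19.4 and 11.6 RPKM in the ZnF4 mutant and 31.1 and 19.4 RPKM in wt, -0.67 on the log2 scale (limma adjusted p = 0.62, or 0.011 with the replicate block).

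Tcf3 encodes the E proteins E12 and E47. The symbol was once also used for the gene now called Tcf7l1, and the accessions of all 5 rows under it belong to the E protein gene. The rows sum to 180.3 and 111.2 RPKM in the ZnF1 mutant, 180.4 and 83 RPKM in the ZnF4 mutant, and 226.4 and 108.3 RPKM in wt. Within each group replicate 1 was far above replicate 2, by 1.62, 2.17 and 2.09 times in the ZnF1 mutant, ZnF4 mutant and wt. That is a larger step than any between the group means. A single row held 81.3% to 85.5% of the sum in every library. The 5 transcripts are 3324 to 3339 bases long and the counting of shared reads is not given, so the split between them is uncertain. The log2 fold change was -0.14 (0.53) for the ZnF1 mutant and -0.35 (0.53) for the ZnF4 mutant against wt, limma adjusted p = 1 in both, and 0.48 and 0.13 with the replicate block. The groups overlapped in all 3 comparisons, and without the block the 95% interval in the ZnF4 mutant ran from -1.7 to 1. With the block it ran from -0.67 to -0.04, which leaves 0 out but is not adjusted for the number of genes tested.

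Among the other E proteins and their inhibitors, 5 of 6 genes were tested and 0 passed without the block, with 1, 1 and 2 at an unadjusted limma p under 0.05 (ZnF1 mutant against wt, ZnF4 mutant against wt, ZnF4 against ZnF1 mutant). Of all genes tested 11.3%, 11.7% and 19.3% lay under it in the same order. Tcf4, which encodes E2-2, had 41.4 and 42.6 RPKM in the ZnF4 mutant, 30.4 and 31 RPKM in the ZnF1 mutant, against 27.7 and 31 RPKM in wt. Both ZnF4 mutant libraries were above all others, 0.5 above wt on the log2 scale (limma adjusted p = 0.21, or 0.012 with the replicate block). Id2, an inhibitor of E proteins, had 17.9 and 12.9 RPKM in the ZnF1 mutant, 5.7 and 6 RPKM in the ZnF4 mutant and 8.2 and 5.6 RPKM in wt. It was 1.06 above wt in the ZnF1 mutant (limma adjusted p = 0.16, or 0.018 with the replicate block). In the ZnF4 mutant it was -1.24 from the ZnF1 mutant (limma adjusted p = 0.054, or 0.0053 with the replicate block). Id3, the most abundant inhibitor of the list, had 82.9 and 44.5 RPKM in the ZnF1 mutant, 94.1 and 34 RPKM in the ZnF4 mutant and 86.5 and 37.3 RPKM in wt, and shared the replicate step of Tcf3. The ratio of Tcf3 to Id3 stayed within 1.92 to 2.9 over the 6 libraries. Tcf12, which encodes the E protein HEB, went the other way and was lower in replicate 1 in every group, with ratios of 0.828 to 0.889. Id1 had 2.8 and 1.6 RPKM in the ZnF4 mutant and 7 and 2.2 RPKM in the ZnF1 mutant, -0.69 on the log2 scale (limma adjusted p = 0.63, or 0.049 with the replicate block).

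Foxo1, which pairs with Ebf1 and drives recombination genes, had 67.8 and 62.4 RPKM in the ZnF1 mutant, 74.9 and 61 RPKM in the ZnF4 mutant, and 60.5 and 59.1 RPKM in wt. Both mutants lay wholly above wt, as 18.3% of all genes did for the ZnF1 mutant and 17.8% for the ZnF4 mutant, but by little. The log2 fold change was 0.12 (0.17) for the ZnF1 mutant and 0.17 (0.17) for the ZnF4 mutant, limma adjusted p = 1 in both, and 0.42 and 0.26 with the replicate block. The 95% intervals were -0.3 to 0.54 and -0.25 to 0.6, or -0.11 to 0.35 and -0.05 to 0.4 with the block. Of its relatives, Foxp1 had 71.5 and 58.4 RPKM in the ZnF4 mutant, 99.3 and 98.7 RPKM in the ZnF1 mutant, against 91.4 and 82.4 RPKM in wt. Foxp1, which is needed for recombination in pro-B cells, was -0.42 from wt in the ZnF4 mutant (limma adjusted p = 0.44, or 0.04 with the replicate block). Foxo3 had 12.8 and 8 RPKM in the ZnF4 mutant against 17.8 and 12.5 RPKM in wt, and was lower by -0.52 with the replicate block (limma adjusted p = 0.05, or 0.67 without it).

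Lef1, a partner of beta-catenin that marks early B cell stages, had 200 and 159.7 RPKM in the ZnF1 mutant, 211.8 and 126.7 RPKM in the ZnF4 mutant, and 269.5 and 182.7 RPKM in wt. Within each replicate number both mutants were below wt, but the groups overlapped because replicate 1 was higher throughout. The log2 fold change against wt was -0.31 (0.33) in the ZnF1 mutant, limma adjusted p = 1, and -0.44 (0.33) in the ZnF4 mutant, limma adjusted p = 0.91. In the block fit the adjusted p was 0.15 and 0.068, so Lef1 did not pass in either fit. Its 95% block intervals, not adjusted for the number of genes tested, were -0.61 to -0.01 and -0.73 to -0.14.

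Tcf7l1 and Tcf7, relatives of Lef1, were far lower in level and, with the replicate block, higher in both mutants than in wt. Tcf7l1, which encodes a mostly repressive member of the family, had 28.5 and 17.3 RPKM in the ZnF1 mutant, 28.6 and 11.5 RPKM in the ZnF4 mutant, and 5.2 and 2.8 RPKM in wt. All mutant libraries were above both wt libraries. Tcf7l1 differed by 2.26 (0.51) in the ZnF1 mutant (limma adjusted p = 0.15, or 0.0052 with the replicate block) and 1.99 (0.51) in the ZnF4 mutant (0.16, or 0.0024 with the block). Tcf7, which encodes TCF-1, had 5.5 and 4.1 RPKM in the ZnF1 mutant, 3.9 and 2.3 RPKM in the ZnF4 mutant and 2.2 and 1.5 RPKM in wt. It was 1.03 above wt in the ZnF1 mutant (limma adjusted p = 0.2, or 0.0085 with the replicate block) and 0.51 above wt in the ZnF4 mutant (0.65, or 0.034 with the block). The ratio of Lef1 to Tcf7 was accordingly 36.4 and 39 in ZnF1 mutant libraries, 54.3 and 55.1 in ZnF4 mutant libraries, and 122 in both wt libraries. Tcf7l2 had 23 and 13.2 RPKM in the ZnF4 mutant and 7.4 and 7.8 RPKM in the ZnF1 mutant, 1.1 on the log2 scale (limma adjusted p = 0.11, or 0.014 with the replicate block). Axin2, a target of Wnt signalling, was close to the limit of the table, at 0.2 and 0.1 RPKM in the ZnF4 mutant, 1.1 and 0.9 RPKM in the ZnF1 mutant, against 1.1 and 0.6 RPKM in wt. Axin2 was -0.67 from wt in the ZnF4 mutant (limma adjusted p = 0.2, or 0.034 with the replicate block). It entered the test only through replicate 1 of the ZnF1 mutant and of wt, where it was high. Its place among the genes lower in the ZnF4 mutant with the block is therefore no evidence of a change.

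Pou2af1 (OCA-B), the coactivator of octamer factors, had 470.4 and 387.8 RPKM in the ZnF1 mutant, 334.8 and 269.8 RPKM in the ZnF4 mutant, and 493.4 and 414.6 RPKM in wt. Both ZnF4 mutant libraries lay below all 4 others, and the ZnF1 mutant overlapped wt. The means were 429.1 ± 58.4 RPKM in the ZnF1 mutant, 302.3 ± 46 RPKM in the ZnF4 mutant and 454 ± 55.7 RPKM in wt (SD, n = 2 each). Within replicates 1 and 2 the ZnF4 mutant stood at 0.679 and 0.651 of wt, and at 0.712 and 0.696 of the ZnF1 mutant. The log2 fold change in the ZnF4 mutant against wt was -0.59 (0.22), limma adjusted p = 0.37. Within replicate number the standard error was 0.08 and the adjusted p 0.0095. Against the ZnF1 mutant it was -0.51 (0.22), limma adjusted p = 0.3, or 0.0093 with the replicate block. In the ZnF1 mutant against wt it was -0.08 (0.22), limma adjusted p = 1, or 0.53 with the block. The block call against wt was lost when either ZnF4 mutant library or either wt library was left out (adjusted p 0.093 to 0.16), while the log2 fold change stayed at -0.61 to -0.56. The block call against the ZnF1 mutant was lost without either ZnF4 mutant library (0.07 and 0.092). The octamer factors it works with were low and did not pass in either fit: Pou2f2 was at 4.9 to 10.8 RPKM and Pou2f1 at 9.7 to 14.6 RPKM.

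Spib had 181.3 and 154.4 RPKM in the ZnF1 mutant, 71.8 and 28 RPKM in the ZnF4 mutant, and 138.5 and 80.6 RPKM in wt. The 3 groups did not overlap: both ZnF1 mutant libraries were above wt and both ZnF4 mutant libraries below it. The means were 167.9 ± 19 RPKM in the ZnF1 mutant, 49.9 ± 31 RPKM in the ZnF4 mutant and 109.5 ± 40.9 RPKM in wt (SD, n = 2 each). Within replicates 1 and 2 the ZnF1 mutant stood at 1.31 and 1.92 times wt and the ZnF4 mutant at 0.518 and 0.347 of wt. The range of Spib over the 6 libraries was larger than that of 98% of the genes tested.

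Between the mutants Spib differed by -1.87 (0.5) on the log2 scale, limma adjusted p = 0.11. In the block fit the standard error was 0.25, the 95% interval -2.52 to -1.22 and the adjusted p 0.0068, and only 1.71% of genes had a larger difference in this comparison. That block call held in each of the 6 fits that left out 1 library, with a log2 fold change of -2.29 to -1.46 and an adjusted p of 0.019 to 0.037. Against wt the ZnF4 mutant differed by -1.22 (0.5), limma adjusted p = 0.45, or 0.036 with the replicate block. This call was lost without ZnF4 mutant replicate 2 (log2 fold change -0.8, adjusted p = 0.16), without wt replicate 1 (-1.22, 0.2) and without wt replicate 2 (-1.21, 0.21). In the ZnF1 mutant against wt the log2 fold change was 0.66 (0.5), limma adjusted p = 0.95, or 0.16 with the replicate block, and did not pass. Spib is also made by plasmacytoid dendritic cells. Of 6 listed markers of these cells, Siglech, Ccr9 and Pacsin1 stayed under 1 RPKM in every library, and Clec10a reached at most 1.2 RPKM. Cox6a2 had 0.5 and 0.3 RPKM in the ZnF4 mutant, 1.6 and 1.8 RPKM in the ZnF1 mutant, against 0.5 and 0.2 RPKM in wt, and so moved in the direction of Spib between the mutants, though it was high enough to be tested only through the ZnF1 mutant. Bst2, which many cell types make, was at 19.9 to 62.6 RPKM and took up most of the summed level of the list, which was 38.2 to 63.8 RPKM for the ZnF4 mutant, 38.7 to 55.9 RPKM for the ZnF1 mutant and 20.7 to 42.3 RPKM for wt. The part of such cells in the Spib difference was not tested.

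Sfpi1 encodes PU.1, which B cells carry at a low level and macrophages at a high one. It had 95.1 and 64.6 RPKM in the ZnF1 mutant, 66.3 and 37.3 RPKM in the ZnF4 mutant, and 60.5 and 32.5 RPKM in wt. Both ZnF1 mutant libraries were above wt, the ZnF4 mutant overlapped both other groups, and replicate 1 was higher in every group. The means were 79.85 ± 21.6 RPKM in the ZnF1 mutant, 51.8 ± 20.5 RPKM in the ZnF4 mutant and 46.5 ± 19.8 RPKM in wt (SD, n = 2 each). Within replicates 1 and 2 the ZnF1 mutant stood at 1.57 and 1.99 times wt and the ZnF4 mutant at 1.1 and 1.15 times wt. The log2 fold change in the ZnF1 mutant against wt was 0.81 (0.43), limma adjusted p = 0.69. Within replicate number its standard error was 0.1 and its adjusted p 0.014.

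In the ZnF4 against the ZnF1 mutant Sfpi1 differed by -0.65 (0.43), limma adjusted p = 0.52, or 0.01 with the replicate block. In the ZnF4 mutant against wt it differed by 0.16 (0.43), limma adjusted p = 1, or 0.35 with the block. The block call against wt was lost without ZnF1 mutant replicate 1 (log2 fold change 0.95, adjusted p = 0.061), wt replicate 1 (0.9, 0.086) or wt replicate 2 (0.71, 0.12). The call between the mutants was lost without either ZnF4 mutant library (0.065 and 0.094). Macrophage markers were also higher in the ZnF1 mutant. Their sum was lower in replicate 1 of each group, but the single markers were divided. In replicate 1 of every group 3 markers were higher, as Sfpi1 was, 2 were lower, and 4 were mixed. In replicates 1 and 2 it was 923.3 and 995.6 RPKM in the ZnF1 mutant. It was 326.5 and 360.1 RPKM in the ZnF4 mutant and 312.7 and 370.6 RPKM in wt. All 9 markers were higher in both ZnF1 mutant libraries than in both wt libraries, with a median log2 fold change of 1.36. With the replicate block 8 of the 9 passed, where 10.4% of all genes were higher. Without it 0 passed (9 at an unadjusted limma p under 0.05, as were 11.3% of all genes). All 9 were lower in both ZnF4 mutant libraries than in both ZnF1 mutant libraries. Of these 6 passed without the block and 8 with it, where 3.75% and 19.2% of all genes passed as lower. The part of the macrophage markers in the Sfpi1 result was not tested. In these bulk cultures a changed share of a cell type and a changed level of RNA per cell cannot be told apart.

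The ratio of Spib to Sfpi1 was 1.91 and 2.39 in ZnF1 mutant libraries, 1.08 and 0.751 in ZnF4 mutant libraries, and 2.29 and 2.48 in wt. Both ZnF4 mutant libraries were below the rest, and ZnF4 mutant replicate 2 was the only library with more Sfpi1 than Spib.

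**Figure D2:**
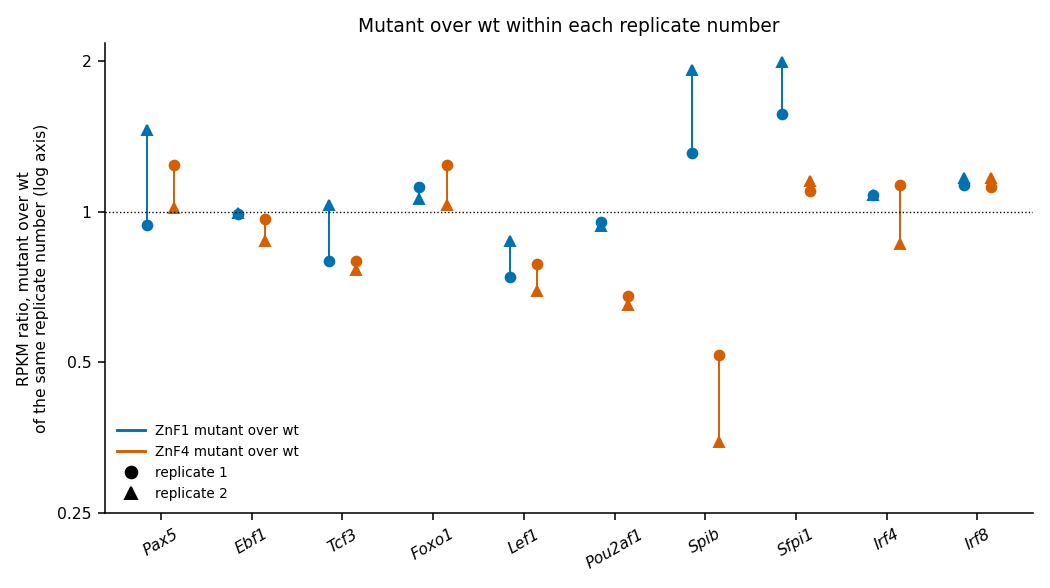
Ratio of RPKM, mutant over wt library of the same replicate number (y axis, log scale), for the 10 factors (x axis); blue is the ZnF1 mutant, orange the ZnF4 mutant, circles replicate 1, triangles replicate 2, and lines join the 2 replicates. Spib lies above 1 in the ZnF1 mutant (1.31 and 1.92) and below 1 in the ZnF4 mutant (0.518 and 0.347), Sfpi1 lies at 1.57 and 1.99 in the ZnF1 mutant, and Pou2af1 lies at 0.679 and 0.651 in the ZnF4 mutant.

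Of 6 other ETS genes 5 were tested and 0 passed without the block, with 1, 4 and 0 at an unadjusted limma p under 0.05 (ZnF1 mutant against wt, ZnF4 mutant against wt, ZnF4 against ZnF1 mutant). Of all genes tested 11.3%, 11.7% and 19.3% lay under it in the same order. Ets1, a lymphoid ETS factor, had 53.3 and 44.8 RPKM in the ZnF1 mutant, 51 and 43.2 RPKM in the ZnF4 mutant and 84.6 and 74.5 RPKM in wt. All mutant libraries were below both wt libraries, by -0.69 (0.18) in the ZnF1 mutant (limma adjusted p = 0.19, or 0.008 with the replicate block) and -0.75 (0.18) in the ZnF4 mutant (0.14, or 0.0036 with the block). Erg, a factor of haematopoietic progenitors, had 117.7 and 92.8 RPKM in the ZnF1 mutant, 81.9 and 53.5 RPKM in the ZnF4 mutant and 132.2 and 101.3 RPKM in wt. Like Pou2af1 it was lowest in the ZnF4 mutant, -0.8 from wt (limma adjusted p = 0.33, or 0.0068 with the replicate block). Elf1 and Etv6 moved by less: Elf1 was -0.38 from wt in the ZnF4 mutant (limma adjusted p = 0.39, or 0.036 with the replicate block) and Etv6 0.43 above wt (0.38, or 0.019 with the block). Spic, a close relative of Spib and Sfpi1, reached at most 0.4 RPKM and was not tested.

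Irf4 and Irf8, which bind beside PU.1 and Spi-B, differed little between groups. Irf4 had 26.3 and 30.7 RPKM in the ZnF1 mutant, 27.4 and 24.4 RPKM in the ZnF4 mutant, and 24.3 and 28.3 RPKM in wt, and the 3 groups overlapped. Its log2 fold change was 0.11 (0.17) for the ZnF1 mutant and -0.02 (0.17) for the ZnF4 mutant, limma adjusted p = 1 in both, with block intervals of -0.19 to 0.41 and -0.32 to 0.28. Irf8 had 71.5 and 47.6 RPKM in the ZnF1 mutant, 71.1 and 47.8 RPKM in the ZnF4 mutant, and 63.5 and 40.7 RPKM in wt. The mutants were almost equal to each other in both replicates, and replicate 1 stood at 1.49 to 1.56 times replicate 2 in the 3 groups. Irf8 was 0.19 (0.34) from wt in both mutants, limma adjusted p = 1, or 0.13 in both with the replicate block, and did not pass. Its 95% block interval, not adjusted for the number of genes tested, was 0.02 to 0.37 in both mutants. The ratio of Irf4 to Irf8 ranged from 0.368 to 0.695 and was higher in replicate 2 of every group.

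Among 7 other IRF genes 6 were tested and 0 passed without the block, with 0 at an unadjusted limma p under 0.05 in each comparison. Of all genes tested 11.3% (ZnF1 mutant against wt), 11.7% (ZnF4 mutant against wt) and 19.3% (ZnF4 against ZnF1 mutant) lay under it. Irf5, a factor of B cells and macrophages, had 68.8 and 55.8 RPKM in the ZnF1 mutant, 53.4 and 33 RPKM in the ZnF4 mutant and 49.6 and 35 RPKM in wt. It was 0.56 above wt in the ZnF1 mutant (limma adjusted p = 0.71, or 0.033 with the replicate block).

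**Figure D3:**
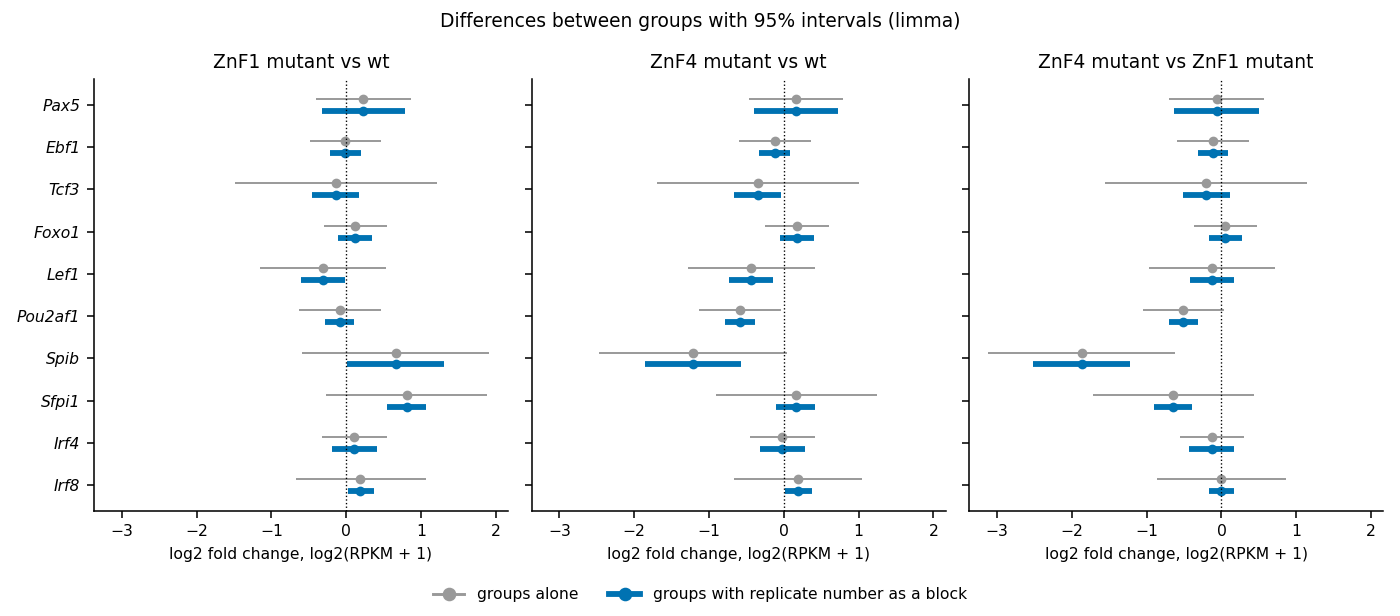
Log2 fold change on log2(RPKM + 1) (x axis) of the 10 factors (rows) in the 3 comparisons, with 95% intervals from limma; thin grey lines are the fit of the groups alone and thick blue lines the fit within replicate number. Intervals are not adjusted for the number of genes tested. Both fits lie below 0 for Spib between the mutants (-3.12 to -0.62 and -2.52 to -1.22). The same holds for Pou2af1 in the ZnF4 mutant against wt (-1.14 to -0.04 and -0.79 to -0.39). In the ZnF1 mutant against wt the Sfpi1 interval leaves 0 out with the block only (0.55 to 1.07), as do those of Lef1, Spib and Irf8.

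Over all 36 relatives and partners of the factors, 26 were tested and 0 passed in any comparison without the block, with 4, 8 and 5 at an unadjusted limma p under 0.05 (ZnF1 mutant against wt, ZnF4 mutant against wt, ZnF4 against ZnF1 mutant). Of all genes tested 11.3%, 11.7% and 19.3% lay under it in the same order. With the replicate block 4 were higher and 1 lower in the ZnF1 mutant than in wt, 4 higher and 6 lower in the ZnF4 mutant than in wt, and 3 higher and 7 lower in the ZnF4 than in the ZnF1 mutant. Both counts of lower genes in the ZnF4 mutant include Axin2, which was tested only through the other groups. Their median log2 fold change was 0.05, -0.02 and -0.18, against -0.01, 0.04 and 0.04 over all genes. The block passed 13.2%, 15.9% and 35.1% of all genes in either direction in the same comparisons.

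Of 27 genes of the Ikaros family and other lymphoid regulators, 23 were tested. Ikzf1 itself had 188.2 and 170.2 RPKM in the ZnF4 mutant, 101.5 and 116.7 RPKM in the ZnF1 mutant, against 89.2 and 85.9 RPKM in wt. It rose in the ZnF4 mutant by 1.02 (0.16) against wt, limma adjusted p = 0.045. Ikzf1 was the only gene of the list to pass there without the block, where 2.72% of all genes passed. The level of the whole transcript does not check the loss of a single finger. In the ZnF4 against the ZnF1 mutant Arid3a and Klf3 passed as lower without the block, as did 3.75% of all genes. Arid3a, a B cell regulator, had 3.4 and 2.5 RPKM in the ZnF4 mutant, 9.5 and 8.8 RPKM in the ZnF1 mutant, against 7.3 and 5.4 RPKM in wt, a difference between the mutants of -1.37 (limma adjusted p = 0.031). Klf3, a repressor of the Krüppel-like family, had 7.1 and 6.2 RPKM in the ZnF4 mutant, 22.9 and 16.3 RPKM in the ZnF1 mutant, against 6.6 and 5.2 RPKM in wt, a difference of -1.41 (limma adjusted p = 0.033). Calls without the block were few in any fit that left out 1 library, with 0 to 88 of all genes in the ZnF4 mutant against wt in place of 309, and 0 to 262 in the ZnF4 against the ZnF1 mutant in place of 609. No gene of the list passed in the ZnF1 mutant against wt without the block, where 3 of the 23 had an unadjusted limma p under 0.05, as did 11.3% of all genes.

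With the replicate block 5 of these 23 regulators passed as higher and 1 as lower in the ZnF1 mutant against wt (10.4% and 2.88% of all genes). In the ZnF4 mutant against wt 3 passed as higher and 5 as lower (8.02% and 7.92% of all genes). In the ZnF4 against the ZnF1 mutant 3 passed as higher and 9 as lower (15.9% and 19.2% of all genes). Bach2, a repressor of plasma cell fate, had 17.4 and 13.7 RPKM in the ZnF4 mutant, 26.9 and 27.3 RPKM in the ZnF1 mutant, against 27.8 and 25.6 RPKM in wt. It was -0.75 from wt in the ZnF4 mutant (limma adjusted p = 0.12, or 0.01 with the replicate block). Xbp1, a factor of secretory cells, had 36.4 and 33.5 RPKM in the ZnF4 mutant, 107.2 and 60 RPKM in the ZnF1 mutant, against 134.2 and 100.9 RPKM in wt, -1.71 in the ZnF4 mutant against wt (limma adjusted p = 0.07, or 0.0047 with the block). Mef2c, which supports B cell development, had 71.8 and 68.4 RPKM in the ZnF4 mutant, 42 and 49.9 RPKM in the ZnF1 mutant, against 39.3 and 45.6 RPKM in wt. It was 0.71 above wt in the ZnF4 mutant (limma adjusted p = 0.13, or 0.012 with the block). Ikzf4, an Ikaros relative, had 4.1 and 2.9 RPKM in the ZnF4 mutant and 1.3 and 0.7 RPKM in wt, 1.17 on the log2 scale (limma adjusted p = 0.14, or 0.0037 with the block). Myb was lower in both mutants with the block, with 76.6 and 79 RPKM in the ZnF1 mutant, 80.8 and 78.3 RPKM in the ZnF4 mutant, against 102 and 116.4 RPKM in wt. Its log2 fold change was -0.48 for the ZnF1 mutant and -0.45 for the ZnF4 mutant (limma adjusted p = 0.028 in both with the block, and 0.28 and 0.3 without it). Bcl6, Cebpa and Zeb2 were higher in the ZnF1 mutant than in wt with the block, by 0.66, 0.9 and 0.61 (limma adjusted p = 0.032, 0.028 and 0.04, and 0.25, 0.78 and 0.46 without it). Between the mutants Runx1 differed by -0.33 and Cebpb by -0.85 (limma adjusted p = 0.026 and 0.041 with the block, and 0.56 and 0.39 without it). Cebpa and Zeb2 are also expressed in myeloid cells, and the macrophage markers were higher in the same libraries. Their part was not tested.

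**Figure D4:**
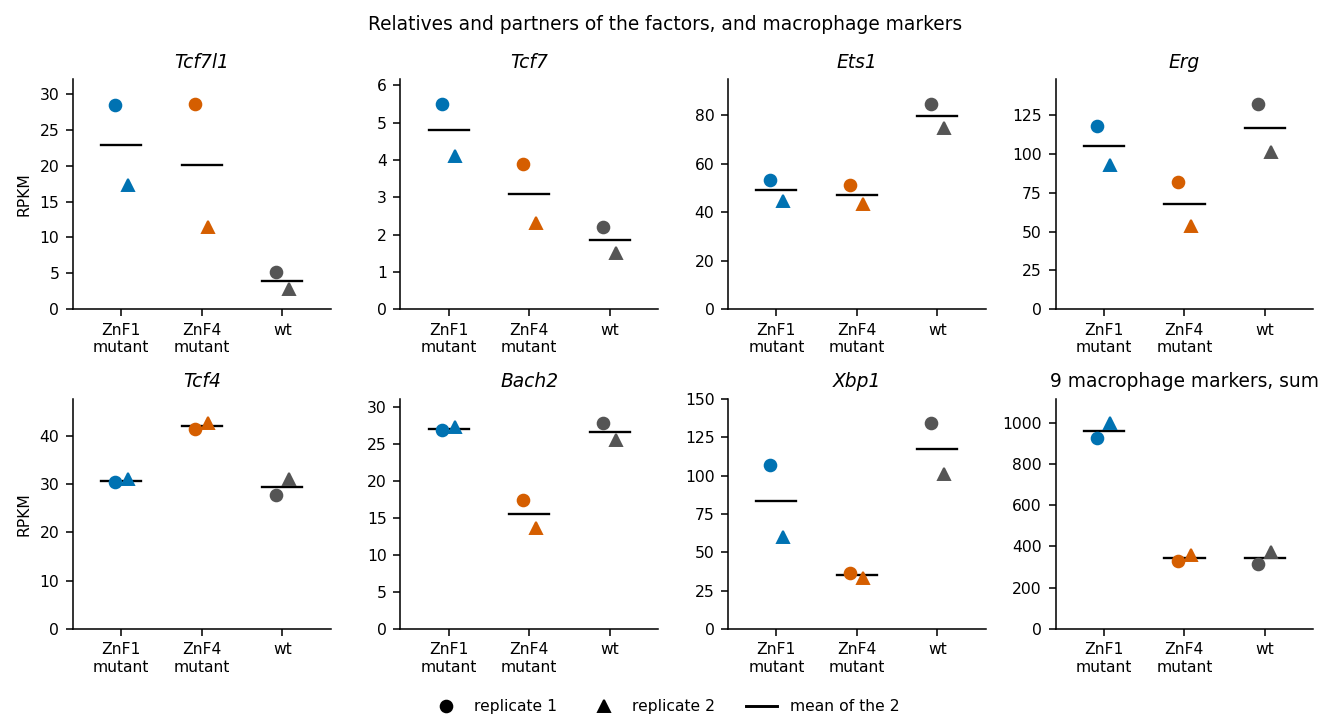
RPKM (y axis, linear, from 0, scaled for each panel) of 7 relatives and co-regulators of the factors and the sum of 9 macrophage markers in the ZnF1 mutant, ZnF4 mutant and wt groups (x axis); circles are replicate 1, triangles replicate 2 and bars the mean of the 2. Tcf7l1 is at 11.5 to 28.6 RPKM in the mutants and at 5.2 and 2.8 RPKM in wt, Ets1 is lower in all mutant libraries, and the macrophage sum is high in both ZnF1 mutant libraries only.

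Genes that these factors are known to activate in B lineage cells did not follow 1 direction. All 19 listed were tested. Without the block 0 passed in the ZnF1 mutant against wt (7 at an unadjusted limma p under 0.05, as were 11.3% of all genes). In the ZnF4 mutant against wt 1 passed as higher and 2 as lower (1.43% and 1.3% of all genes). In the ZnF4 against the ZnF1 mutant 1 passed as higher and 2 as lower (1.61% and 3.75% of all genes). With the replicate block 7 passed as higher and 0 as lower in the ZnF1 mutant against wt (10.4% and 2.88% of all genes). In the ZnF4 mutant against wt 4 passed as higher and 3 as lower (8.02% and 7.92% of all genes). In the ZnF4 against the ZnF1 mutant 2 passed as higher and 8 as lower (15.9% and 19.2% of all genes). The median log2 fold change of the list was 0.12, 0.05 and -0.25 in these comparisons.

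Blk, a kinase of the pre-B cell receptor, had 8 and 3.4 RPKM in the ZnF4 mutant, 57.5 and 47.2 RPKM in the ZnF1 mutant, against 66.2 and 54.1 RPKM in wt. It fell in the ZnF4 mutant, with a log2 fold change of -3.27 against wt and -3.08 against the ZnF1 mutant (limma adjusted p = 0.021 in both). Cd72, a Pax5 target that encodes an inhibitory receptor, fell to 21.6 and 18.8 RPKM in the ZnF4 mutant, against 40.1 and 43 RPKM in wt, a change of -1.01 (limma adjusted p = 0.045). Rag1, which encodes a subunit of the recombinase, rose in the ZnF4 mutant to 31.6 and 33.3 RPKM, against 5.4 and 8.7 RPKM in wt, a change of 2.09 (limma adjusted p = 0.023). In the ZnF1 mutant Rag1 had 29.2 and 35.9 RPKM, a change of 2.08 from wt (limma adjusted p = 0.092, or 0.0052 with the replicate block). Rag2 was 1.11 above wt in the ZnF1 mutant and 1.16 above wt in the ZnF4 mutant (limma adjusted p = 0.24 and 0.2 without the block, 0.018 and 0.011 with it).

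Cd22 was higher in the ZnF4 than in the ZnF1 mutant, with wt between them. This gene of an inhibitory receptor had 18 and 11.4 RPKM in the ZnF4 mutant, 2.1 and 3.6 RPKM in the ZnF1 mutant, against 5.7 and 6.3 RPKM in wt. The difference between the mutants was 2.02 (limma adjusted p = 0.028). Against wt Cd22 did not pass in either fit, at 1.13 in the ZnF4 mutant (limma adjusted p = 0.17, or 0.054 with the replicate block) and -0.89 in the ZnF1 mutant (0.31, or 0.11 with the block). Dntt, which encodes terminal transferase, had 79.4 and 40.6 RPKM in the ZnF4 mutant, 205.7 and 129.2 RPKM in the ZnF1 mutant, against 189.2 and 161.4 RPKM in wt, -1.6 in the ZnF4 mutant against wt (limma adjusted p = 0.14, or 0.0058 with the replicate block). Il7r, a target of PU.1 and Foxo1, had 43.5 and 70.5 RPKM in the ZnF1 mutant, 21.1 and 20.3 RPKM in the ZnF4 mutant and 15.3 and 21.3 RPKM in wt. It was 1.56 above wt in the ZnF1 mutant (limma adjusted p = 0.1, or 0.011 with the block). Bcl2l11, a Foxo target that encodes the death protein Bim, had 76.4 and 58.7 RPKM in the ZnF1 mutant, 35.2 and 25.3 RPKM in the ZnF4 mutant and 37 and 28.1 RPKM in wt, 1.03 in the ZnF1 mutant against wt (limma adjusted p = 0.18, or 0.0052 with the block). Cd79a, which encodes a signalling chain of the receptor, was -0.49 in the ZnF4 against the ZnF1 mutant (limma adjusted p = 0.72, or 0.031 with the block). Cr2, a complement receptor of mature B cells, was at 1 and 1.1 RPKM in the ZnF4 mutant, 0.2 and 0.5 RPKM in the ZnF1 mutant, against 0.2 and 0.3 RPKM in wt. It entered the test only through the ZnF4 mutant, where it was high, so its place among the genes higher there with the block is no evidence of a change. Cd79b was 0.65 above wt in the ZnF1 mutant (limma adjusted p = 0.26, or 0.03 with the block). Vpreb2 was 0.36 above wt in the ZnF1 mutant and 0.5 above wt in the ZnF4 mutant (limma adjusted p = 1 in both, or 0.035 and 0.012 with the block).

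For the 3 members whose group means differed most, the tested genes with the nearest profile were found by the Euclidean distance of centred log2(RPKM + 1) over the 6 libraries. Nearest to Spib was Cdkn1a, which encodes the cell cycle inhibitor p21, at a distance of 0.446. It had 250.4 and 148.6 RPKM in the ZnF1 mutant, 73.6 and 27.5 RPKM in the ZnF4 mutant, and 164.7 and 83.4 RPKM in wt. Pim1, a kinase gene (distance 0.589), and Prr13 (0.66) came next. Nearest to Sfpi1 were Csf2ra, a receptor chain for a myeloid growth factor (0.178), Grina (0.199) and Naglu (0.232). Nearest to Pou2af1 were Ttc38 (0.0794), Hp1bp3 (0.0984) and A530088E08Rik (0.0989). These distances describe 6 libraries that share groups and replicate numbers.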

How the data were processed

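RNA was measured in 6 libraries, 2 each from ZnF1 mutant, ZnF4 mutant and wt cultures at day 14. Per the file headers the deposited values are RPKM of RefSeq transcripts, written to 1 decimal by the authors. Build mm9 and the tools TopHat and bedtools are named in the submitters' processing notes. The counting of shared reads and the use of strand are not given in the sources used here, so overlapping or duplicated genes are uncertain. Depth is unknown.

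The 26531 rows were summed by symbol to 22099 genes. A total of 40 symbols had become numbers, 39 of which were restored by accession, and 1 row without a gene was left out. Symbols and promoters came from RefSeq tables of GRCm38.p6, and no file coordinates were used.

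The 11345 genes that reached 1 RPKM in 2 or more libraries were tested with limma 3.58.1 in R 4.3.3: log2(RPKM + 1), intensity trend, 6 libraries in 1 fit of 3 group means, two-sided, Benjamini-Hochberg over all genes (3 residual and 2.32 prior degrees of freedom). The fit without the block was also run on simulated libraries that varied independently of each other. That run held no replicate difference and does not check the block fit. Since a group holds 2 libraries, p-values reflect the spread between these cultures alone. Libraries of 1 number deviated from their group means together, with correlations across genes of 0.715 (ZnF1 and ZnF4 mutant), 0.5 (ZnF1 mutant and wt) and 0.754 (ZnF4 mutant and wt), all over 0.1, so results of a limma fit within replicate number (a replicate block; 2 residual degrees of freedom, 3.06 prior) stand beside the first. The labels give the number and not its meaning. Alternatives changed the pseudocount, filter, scaling, rows per gene, libraries in the fit and block, and left out libraries.

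The named genes are the 10 members, and from the lists of relatives, regulators and targets those called with or without the block, and the 3 genes nearest in profile to each of 3 members. Other list genes are named for context, chosen after their values were seen. Members and lists were chosen with earlier results of these data known. Results of some genes of the marker and target lists are not reported here.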

Additional observations from a re-analysis of the deposited data

Results flagged for a closer look

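For 3 of the 10 factors the effects of the 2 mutations differed from each other by a test of the difference itself, the comparison of the ZnF4 with the ZnF1 mutant within replicate number. In the same fit 35.1% of all genes tested passed (19.2% of all genes lower and 15.9% higher), so 3 of 10 is no more than the background. Spib differed by -1.87 on the log2 scale (limma adjusted p = 0.0068 with the replicate block, 0.11 without it). Both ZnF4 mutant libraries were below wt and both ZnF1 mutant libraries above it. Pou2af1 differed by -0.51 (limma adjusted p = 0.0093 with the block, 0.3 without it), with the ZnF4 mutant below the other groups. Sfpi1 differed by -0.65 (limma adjusted p = 0.01 with the block, 0.52 without it), with the ZnF1 mutant above wt. Macrophage markers summed to 326.5 and 360.1 RPKM in the ZnF4 mutant and to 923.3 and 995.6 RPKM in the ZnF1 mutant, and their part in the Sfpi1 difference was not tested.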

How the results depend on the processing

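Members passing the threshold, 0 in each comparison, stayed at 0 under every alternative run without the replicate block, including those that left out 1 library. With the block 1, 2 and 3 members passed (ZnF1 mutant against wt, ZnF4 mutant against wt, ZnF4 against ZnF1 mutant), and the same counts were found with the block and median scaling. With the block and 1 library left out, alternatives chosen after seeing the data, the counts were 0 to 1, 0 to 3 and 1 to 4. Over all genes the block moved the calls to 1502 in place of 0 (1281 at an unadjusted limma p under 0.05), 1809 in place of 309, and 3979 in place of 609. For the ZnF4 mutant against wt the calls were 176 with a filter of 5 RPKM, 86 with only the 4 libraries compared, and 0 to 88 with 1 library left out. For the ZnF4 against the ZnF1 mutant they were 323, 234 and 0 to 262 in the same order. Without the 2 libraries richest in granulocyte transcripts (wt replicate 1 and ZnF1 mutant replicate 2) there were 0 calls in both. That fit has 1 residual degree of freedom, sets ZnF1 mutant replicate 1 against wt replicate 2, and so includes the replicate difference.

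Several small log2 fold changes without the block turned in sign, and none of these had passed the threshold. With quantile normalisation Ebf1 was 0.01 in the ZnF1 mutant against wt. Without the 2 granulocyte-rich libraries Ebf1 was 0.16, Tcf3 0.73, Lef1 0.13, Pou2af1 0.18 and Irf4 -0.1 in that comparison, Tcf3 was 0.18 in the ZnF4 mutant against wt, and Pax5 was 0.17 between the mutants. With 1 library left out, the ranges in the ZnF1 mutant against wt were -0.01 to 0.47 for Pax5, -0.1 to 0.08 for Ebf1, -0.67 to 0.38 for Tcf3, -0.22 to 0.06 for Pou2af1 and -0.12 to 0.51 for Irf8. In the ZnF4 mutant against wt they were -0.06 to 0.38 for Pax5, -0.28 to 0.04 for Ebf1, -0.91 to 0.2 for Tcf3, -0.28 to 0.6 for Sfpi1, -0.13 to 0.09 for Irf4 and -0.12 to 0.51 for Irf8. Between the mutants they were -0.3 to 0.17 for Pax5, -0.27 to 0.05 for Ebf1, -0.76 to 0.35 for Tcf3, -0.09 to 0.2 for Foxo1 and -0.49 to 0.24 for Lef1. The cause was not tested. The sign of Spib in all 3 comparisons, of Pou2af1 in the ZnF4 mutant against both other groups and of Sfpi1 in the ZnF1 mutant against wt held under every alternative run.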

Other observations

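Several genes of the lists shared the step between replicates 1 and 2 seen for Tcf3, whatever the group. Vpreb1, a surrogate light chain gene, stood at 2.05 to 2.19 times its replicate 2 level in replicate 1 of the 3 groups, and Vpreb2 at 1.72 to 1.86 times. The same ratio was 1.86 to 2.77 for Id3, 1.57 to 2.09 for Cd79a, 1.67 to 1.94 for Sox4 and 1.65 to 2.49 for Tcf7l1. These genes were picked after their values were seen.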
